A study of Mus musculus with 9 samples.

Results

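The genes described here encode heat shock proteins and chaperonins, the proteins that fold other proteins, measured in the marrow of ERG-transgenic mice with a myeloid leukemia and in marrow of wild type mice. A gene belonged to the set when its symbol began with Hspa, Hspb, Hspd, Hspe, Hsph, Hsp90, Dnaja, Dnajb or Dnajc, or was Tcp1 or one of the Cct subunit genes. The rule used names only and no measured value. It found 82 of the 19938 genes tested, with no pseudogene among the candidates. By the compartment of their product, 50 belong to the cytosol or nucleus, 14 to the endoplasmic reticulum (ER), 10 to the mitochondrion, and 8 were placed elsewhere or not assigned. Among those 8 are Hspb11, Hspbap1, Hspbp1 and Cct8l1, which meet the rule by name alone: Hspbp1 binds HSP70 proteins, and the other 3 are not counted with any chaperone family here.

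RNA was measured on 9 Affymetrix whole-transcript arrays in 3 groups of 3, all from femoral marrow of C57BL6 mice. The leukemia group was whole marrow of ERG-transgenic mice, 1 mouse per array, taken once they showed signs of leukemia. Lineage-negative marrow came from 9 wild type mice and was hybridised as 3 pools of 3 mice after antibody depletion of cells with mature blood markers, which leaves mostly immature cells. Whole marrow came from 3 further wild type mice, 1 per array. The sources used here give neither the transgene's promoter nor the animals' ages, and the titles of leukemia 1 and leukemia 2 differ by a single final digit.

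Cells fold new and damaged proteins with a few families of chaperones. HSP70 proteins hold unfolded stretches in cycles driven by ATP, J-domain (DNAJ) proteins bring them their clients, HSP90 finishes signalling proteins such as kinases and receptors, and the chaperonins enclose a single protein in a barrel. The cytosolic barrel, called TRiC or CCT, folds actin and tubulin, while the mitochondrial barrel is built from Hspd1 (HSP60) with the lid Hspe1 (HSP10). Part of the set is made at all times and part is switched on by heat shock factor 1 when proteins unfold in the cytosol. ER members are switched on by the unfolded protein response instead, and this matters most in cells that secrete much protein, such as plasma cells and granule-making myeloid cells.

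Promoter letters were searched for motifs of these factors. Of the 82 members, 68 had an entry in a RefSeq table for the build GRCm38.p6 that holds 250 bases before to 50 bases after each gene's start. The motifs searched on both strands were a heat shock element of 2 units, GAANNTTC, one of 3 units, which is the same run followed by any 2 bases and a further GAA, and the ER stress element, which is CCAAT, any 9 bases and CCACG. Every 3-unit element also holds a 2-unit one. The 3-unit element occurred in 179 of 27025 genes (0.662%) and in 4 of the 68 members (Hspd1, Hspe1, Dnajb6 and Hsph1, in the last after the start). The 2-unit element occurred in 9.04% of genes and in 15 of the 68 members. The ER stress element occurred in 37 genes (0.137%), 3 of them members: Hspa5, Hsp90b1 and Dnajc3. A match is a run of letters and not a measured binding site, and no match says nothing about a factor. The stretches below are shown because Hspe1 and Hspd1 share 1 divergent promoter and both fell against lineage-negative marrow, because Hspa1a differed most from lineage-negative marrow, and because the 3 ER genes share a motif. Each runs 5′ to 3′ on the gene's strand, with the motif in capitals. For Hspe1 the capitals join overlapping 3-unit matches on both strands. The Hspd1 start at 55087932, on the minus strand, faces away from the Hspe1 start at 55088148, and its entry holds the same element. Another Hspd1 start, at 55088243, lies 95 bases past the Hspe1 start, so that pair overlaps and does not diverge. For Hsp90b1 the second capital run is the motif on the other strand.
Hspe1, chr1:55087998-55088147, plus strand: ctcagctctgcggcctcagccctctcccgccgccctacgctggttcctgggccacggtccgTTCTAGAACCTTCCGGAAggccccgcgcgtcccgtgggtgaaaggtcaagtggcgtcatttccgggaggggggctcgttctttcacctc
Hspa1a, chr17:34972157-34972306, minus strand: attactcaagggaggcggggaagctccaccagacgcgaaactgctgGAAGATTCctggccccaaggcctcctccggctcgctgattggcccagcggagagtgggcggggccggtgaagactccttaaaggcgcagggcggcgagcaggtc
Hspa5, chr2:34771940-34772089, plus strand: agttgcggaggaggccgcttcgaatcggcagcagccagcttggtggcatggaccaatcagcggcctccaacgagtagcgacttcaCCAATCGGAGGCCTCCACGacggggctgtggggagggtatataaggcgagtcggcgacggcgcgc
Hsp90b1, chr10:86705495-86705674, minus strand: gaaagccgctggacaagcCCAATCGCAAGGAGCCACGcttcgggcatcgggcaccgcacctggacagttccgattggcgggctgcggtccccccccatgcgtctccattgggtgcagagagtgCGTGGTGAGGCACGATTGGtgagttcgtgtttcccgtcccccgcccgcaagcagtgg
Dnajc3, chr14:118937782-118937931, plus strand: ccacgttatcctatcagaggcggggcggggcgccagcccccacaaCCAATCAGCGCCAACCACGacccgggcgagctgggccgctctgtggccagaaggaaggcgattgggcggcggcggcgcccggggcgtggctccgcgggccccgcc

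Values are linear intensities, and differences are on the log2 scale with their standard error. An intensity depends on a probe set's own sequence, so levels are compared between groups and not between genes. Array medians ran from 32.3 to 34.4, and the median of all probe sets was 33.4. Of the members, 65 exceeded that median in the mean of at least 1 group and 17 did not in any. Mature neutrophil markers (12 measured) summed to 16994 to 26342 in the leukemias, 780 to 2534 in lineage-negative marrow and 43107 to 50103 in whole marrow, so the depletion is visible. Stem and progenitor markers (9 measured) summed to 1495 to 2720 in the leukemias, 2088 to 3178 in lineage-negative marrow and 779 to 962 in whole marrow. In leukemia that sum was mostly Gata2 and Slamf1, which rose against whole marrow, while Cd34 and Procr fell, the median over the 9 was -0.31, and 4 of the 9 fell against lineage-negative marrow. Erythroid markers (9 measured) summed to 4679 to 8172 in the leukemias, 4994 to 6968 in lineage-negative marrow and 1297 to 3850 in whole marrow. The cell mixture thus differed between the groups in every comparison below, and its part in the results was not tested. In bulk marrow, fewer cells of a type and less RNA per cell cannot be told apart. The 1 mouse Erg probe set read 73.2 to 97.2 in the leukemias and 128.6 to 194.4 in whole marrow. Whether it reads the transgene is unknown here, so it does not check the labels.

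Against whole marrow, 23 of the 82 members rose in leukemia, 1 fell and 58 did not pass the test (limma, adjusted p under 0.05). The 23 are 28.0% of the set, beside 14.6% of all genes tested. All 23 were among the 65 members above the median intensity in a group, of which they are 35.4%, beside 26.0% of the 11001 genes above it. A gene can exceed the median through the group where it is high, so these shares are given as a description. For falls, 1 of 82 (1.22%) stands beside 9.93% of all genes. The split depends on scaling: after centring on the 75th percentile, and likewise after cyclic loess, 16 members rose and 8 fell. The first of these shifts the median of all genes to -0.12 in this comparison and to -0.19 in lineage-negative against whole marrow, from -0.02 and -0.03 as deposited. All 3 leukemia arrays lay above all 3 whole marrow arrays in 29 of 82 members, beside 19.4% of all genes. Against lineage-negative marrow, 1 of the 82 members rose (1.22%, beside 2.95% of all genes), 8 fell (9.76%, beside 5.74%) and 73 did not pass. The 1 that rose lay below the median in every group, whereas 5.12% of the brighter genes rose. The 8 were 12.3% of the 65 brighter members, beside 9.62% of the brighter genes. Lineage-negative marrow itself, against whole marrow, had 34 members higher (41.5%, beside 21.7% of all genes) and 5 lower (6.1%, beside 13.0%). Of the 65 brighter members 33 were higher (50.8%, beside 38.2% of the brighter genes) and 4 lower (6.15%, beside 19.3%). In 39 of the 82 all lineage-negative arrays lay above all whole marrow arrays, beside 26.6% of all genes. Under the same scalings these became 29 higher and 9 lower, and 26 higher and 8 lower. Each pair of comparisons shares 3 arrays, so the comparisons are not independent.

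The members did not move as a block. Of the 23 that rose in leukemia against whole marrow, 13 were cytosolic or nuclear, 5 mitochondrial, 2 of the ER and 3 placed elsewhere. Median differences from whole marrow were 0.38 for the 10 mitochondrial members, 0.09 for the 50 cytosolic and nuclear ones and -0.18 for the 14 ER members, beside -0.02 over all genes. Without the cytosolic chaperonin, 5 of 41 cytosolic and nuclear members rose (12.2%, near the share of all genes) and their median was 0.04. Of these 41, 28 were above the median intensity in a group. No test was made between compartments.

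**Figure D1:**
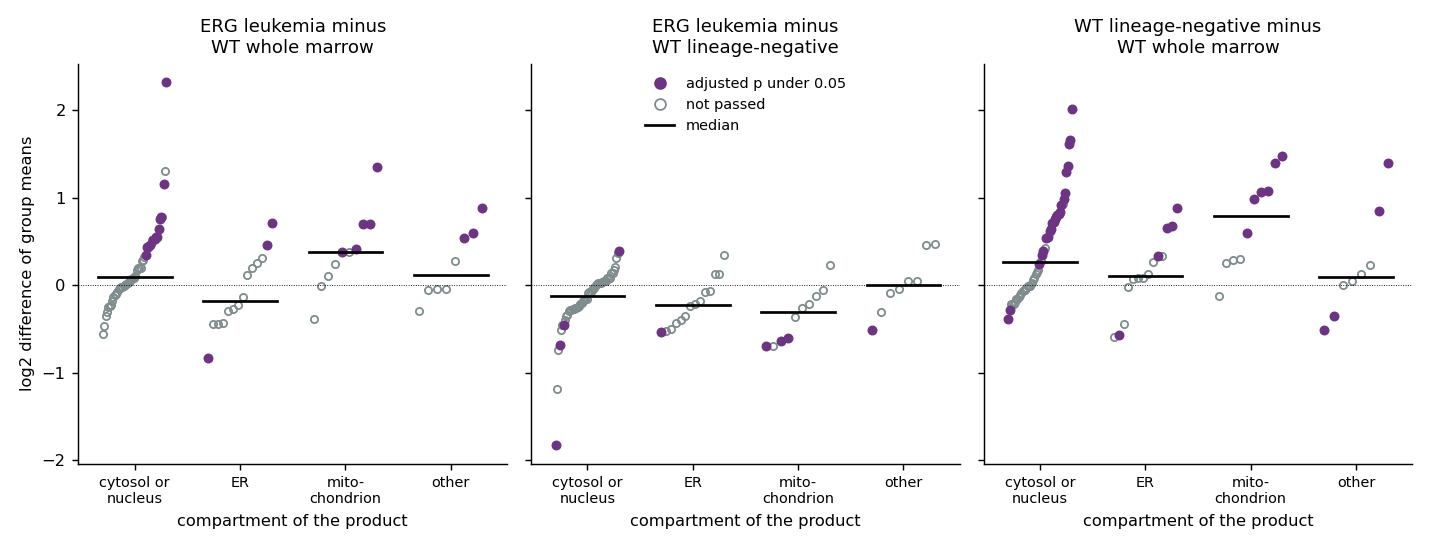
Log2 difference of group means (y axis) for each of the 82 members by compartment of the product (x axis) in the 3 comparisons, filled where limma's adjusted p is under 0.05, with a bar at each median. In leukemia against whole marrow, the mitochondrial median is 0.38 and the ER median -0.18.

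The cytosolic chaperonin genes differed from whole marrow in the same direction, by differing amounts. All 8 subunit genes of the common complex rose in leukemia against whole marrow, by 0.43 to 1.15, beside 14.6% of all genes and 26.0% of the brighter ones. Cct6b, a subunit known mainly from testis, did not pass and lay below the median intensity in every group. Tcp1, which encodes the alpha subunit, read 1040, 919 and 986 in the leukemias, 1149, 1302 and 1093 in lineage-negative marrow and 615, 510 and 592 in whole marrow. The leukemias lay above every whole marrow array and below every lineage-negative array. In leukemia Tcp1 was 1.72-fold its level in whole marrow (0.78 ± 0.10, limma adjusted p = 0.00146). Its difference from lineage-negative marrow, -0.27 (95% interval -0.50 to -0.03), did not pass (adjusted p = 0.16).

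Cct3, the gamma subunit, had the largest difference of the complex. It read 539, 619 and 498 in the leukemias, 774, 811 and 686 in lineage-negative marrow and 276, 208 and 262 in whole marrow, with no overlap between any groups. Leukemia was 2.23-fold whole marrow (1.15 ± 0.13, limma adjusted p = 0.000939), and its difference from lineage-negative marrow was -0.46 (-0.75 to -0.16, adjusted p = 0.0653). Cct2, the beta subunit, read 1195, 1301 and 1190 in the leukemias, 1566, 1567 and 1382 in lineage-negative marrow and 864, 902 and 919 in whole marrow, again in 3 separate bands. Its rise against whole marrow was 1.37-fold (0.46 ± 0.08, limma adjusted p = 0.00407).

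The other subunits showed the same order. Cct5 rose 1.69-fold over whole marrow, Cct8 1.56-fold, Cct7 1.46-fold, Cct6a 1.45-fold and Cct4 1.35-fold (limma adjusted p between 0.000839 for Cct5 and 0.0131 for Cct4). The Cct4 call was lost under both scalings (adjusted p = 0.10 and 0.0899), which left 7 subunits higher. Leaving out any 1 array left all 8 higher. In 7 of the 8 the leukemias lay below all lineage-negative arrays (16.3% of all genes did), yet Cct6a alone passed the test there, at -0.45 ± 0.09 (limma adjusted p = 0.02), and its call was lost in 5 of the alternatives. Cct5 was the exception to the order: its leukemia arrays, at 875, 967 and 910, overlapped lineage-negative marrow, at 909, 1040 and 961 (difference -0.08, 95% interval -0.27 to 0.11). All 8 subunits were higher in lineage-negative than in whole marrow, by 0.75 to 1.61, and kept this under both scalings. Of all genes 21.7% were higher there, and of the brighter ones 38.2%. The median SD of the 9 genes within a group was 0.12 log2 units in leukemia, 0.11 in lineage-negative and 0.084 in whole marrow, beside 0.127, 0.101 and 0.127 over all genes, so it was below that of all genes mainly in whole marrow.

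**Figure D2:**
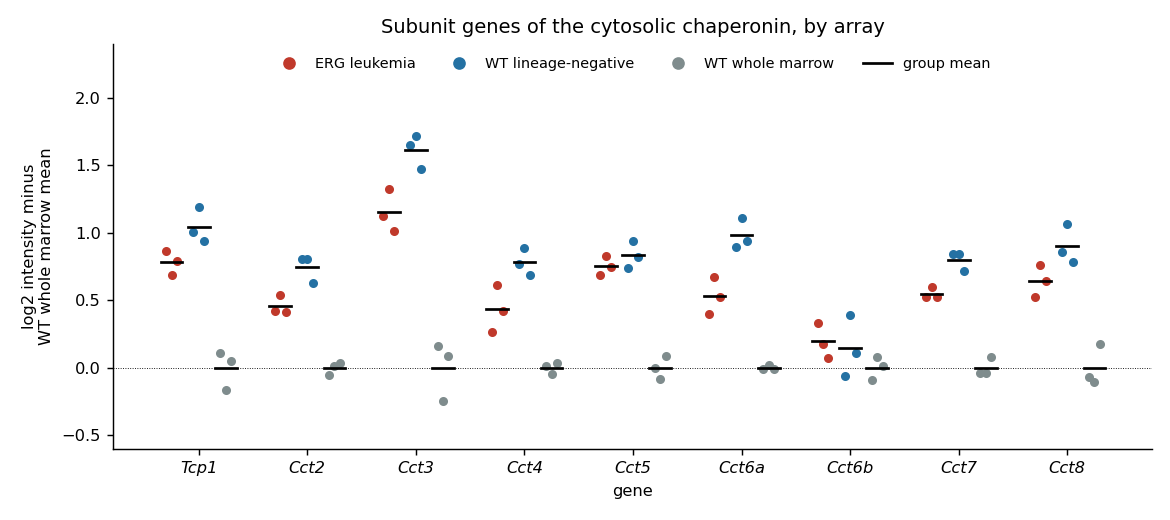
Log2 intensity of each array minus the whole marrow mean (y axis) for the 9 cytosolic chaperonin genes (x axis), 3 arrays per group, with a bar at each group mean. In all but Cct6b the 3 leukemia arrays sit above the whole marrow arrays, and in 7 of these 8 below the lineage-negative arrays.

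Prefoldin and phosducin-like proteins hand clients to this barrel. Of their 9 genes, 2 rose and 1 fell against whole marrow (14.6% and 9.93% of all genes), and 4 were higher in lineage-negative than in whole marrow (21.7% of all genes). Pfdn6, a prefoldin subunit, rose by 0.89 ± 0.20 in leukemia (limma adjusted p = 0.0122), and Pdcl fell by 0.39 (adjusted p = 0.033), a call lost in 8 of the alternatives.

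The main mitochondrial folding genes had the same order of groups, with leukemia in the middle. Of 10 members, all above the median intensity in a group, 5 rose in leukemia against whole marrow, beside 14.6% of all genes and 26.0% of the brighter ones. Against lineage-negative marrow 3 fell (5.74% and 9.62%), and in lineage-negative against whole marrow 6 were higher (21.7% and 38.2%). Hspd1 read 954, 1189 and 1002 in the leukemias, 1567, 1942 and 1589 in lineage-negative marrow and 654, 538 and 755 in whole marrow. The 3 groups did not overlap, and the leukemias sat between the wild type groups. Leukemia was 1.62-fold whole marrow (0.70 ± 0.15, limma adjusted p = 0.0096), and 1.62-fold lower than lineage-negative marrow (-0.70 ± 0.15, adjusted p = 0.0242). The second call was lost without leukemia 1, leukemia 3 or any 1 lineage-negative array (adjusted p between 0.0553 and 0.0768).

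Hspe1, transcribed from the other side of the printed promoter, read 1100, 1150 and 1174 in the leukemias, 1845, 1898 and 1487 in lineage-negative marrow and 1013, 788 and 846 in whole marrow. Its 3 groups were separate too. It fell against lineage-negative marrow (-0.60 ± 0.12, limma adjusted p = 0.02), a call lost without leukemia 3, lineage-negative 1 or lineage-negative 2. Its difference from whole marrow, 0.38 (95% interval 0.10 to 0.65), narrowly did not pass (adjusted p = 0.0521). It passed in 5 of the other settings, among them the mean of its probe sets (0.50 ± 0.12, limma adjusted p = 0.015) and leaving out whole marrow 1 (0.48, 0.0303), and also on the probe set of the gene's own chromosome, a setting chosen after seeing the data (0.62 ± 0.12, 0.00742).

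Hspa9 (mortalin), the HSP70 of the mitochondrial import motor, read 744, 756 and 721 in the leukemias, 945, 1042 and 876 in lineage-negative marrow and 495, 385 and 493 in whole marrow. It too formed 3 bands, and it rose 1.63-fold in leukemia over whole marrow (0.70 ± 0.11, limma adjusted p = 0.00299). The Hspa9 difference from lineage-negative marrow, -0.36 (95% interval -0.62 to -0.11), did not pass (limma adjusted p = 0.0859). Dnaja3 (Tid1), the J-domain partner of Hspa9, averaged 151 ± 10.7 in leukemia, 237 ± 42.6 in lineage-negative and 113 ± 8.7 in whole marrow (SD, n = 3 each). It rose against whole marrow (0.41 ± 0.13, limma adjusted p = 0.0459), a call lost in 10 of the alternatives, and fell against lineage-negative marrow (-0.64 ± 0.13, adjusted p = 0.0195). Dnajc11, a J-domain protein of the complex that shapes the inner membrane, behaved otherwise: it read 190, 213 and 163 in the leukemias, 179, 264 and 181 in lineage-negative marrow and 74, 67 and 81 in whole marrow. The leukemias overlapped lineage-negative marrow and stood clear of whole marrow, 2.55-fold above it (1.35 ± 0.17, limma adjusted p = 0.00121). Dnajc30 rose by 0.38 ± 0.10 (limma adjusted p = 0.0242, lost in 8 alternatives), whereas Dnajc15, a J-domain protein of the import motor, read 86, 114 and 169 in the leukemias and 162, 150 and 151 in whole marrow and did not pass (-0.39, 95% interval -0.85 to 0.08) unless leukemia 3 was left out. Both scalings reduced the 5 rises to 3, and so did leaving out leukemia 3.

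Other mitochondrial folding, import and protease genes outside the set had 7 of 12 higher against whole marrow (median 0.47). This stands beside 14.6% of all genes and 26.0% of the brighter ones. Hscb, which helps load iron-sulphur clusters, rose most, by 1.30 ± 0.13 (limma adjusted p = 0.000754). Against lineage-negative marrow 2 of the 12 fell (5.74% and 9.62%), Trap1, the mitochondrial HSP90, by 0.79 (limma adjusted p = 0.00867). In lineage-negative against whole marrow 10 of the 12 were higher (21.7% and 38.2%), led by the protease gene Clpp at 1.39 ± 0.12.

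**Figure D3:**
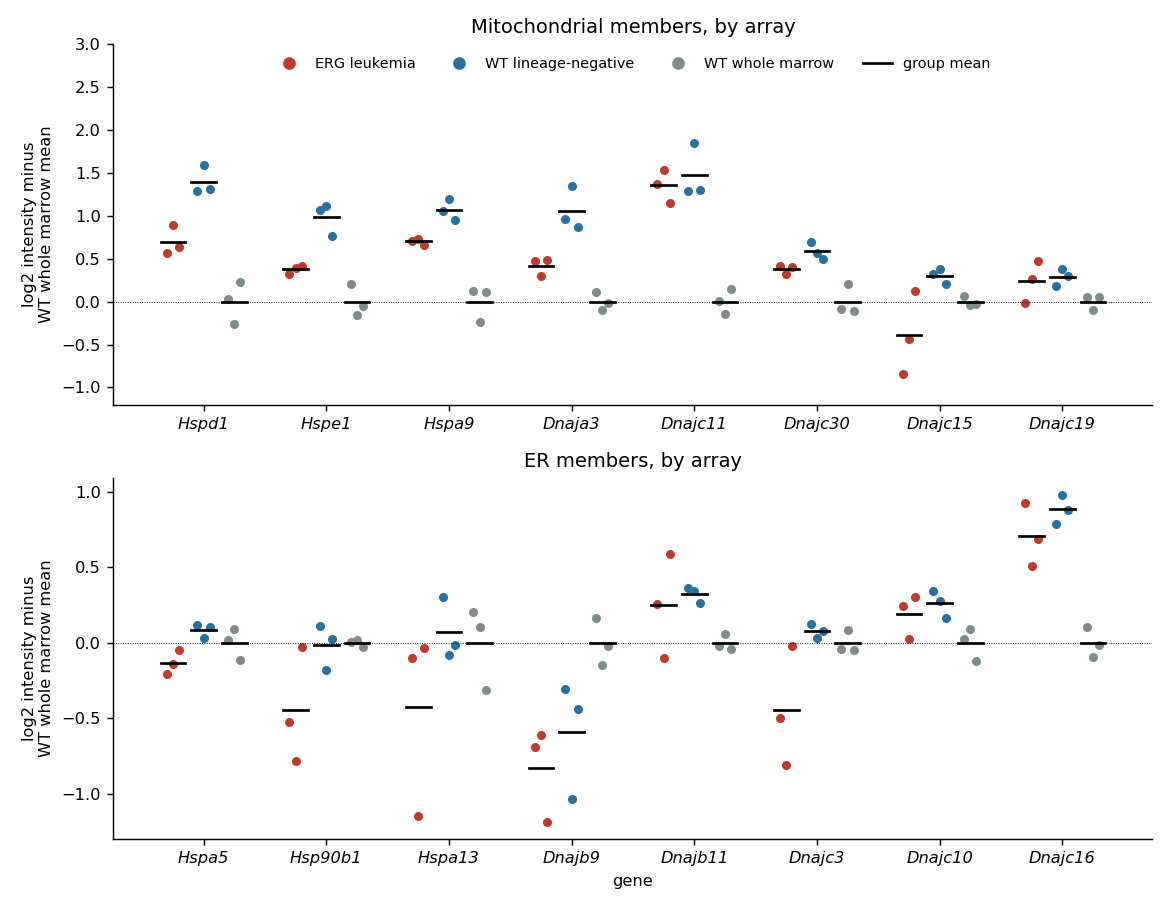
Log2 intensity of each array minus the whole marrow mean (y axis) for 8 mitochondrial members (upper panel) and 8 ER members (lower panel), 3 arrays per group, with a bar at each group mean. Hspd1, Hspe1 and Hspa9 form 3 separate bands, while the leukemia arrays of Hsp90b1, Hspa13 and Dnajc3 are lowest in leukemia 2.

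Against whole marrow 2 of 14 ER members rose (14.3%, beside 14.6% of all genes and 26.0% of the brighter ones), 1 fell (7.14%, beside 9.93% and 16.3%) and 11 did not pass. Scaling turned this balance: 1 rose and 4 fell after 75th percentile centring, and 1 rose and 6 fell after cyclic loess. Hspa5 (BiP), the main HSP70 of the ER, read 1431, 1503 and 1603 in the leukemias, 1792, 1693 and 1778 in lineage-negative marrow and 1676, 1764 and 1530 in whole marrow. The leukemias overlapped whole marrow and lay below lineage-negative marrow, but neither difference passed (-0.13, 95% interval -0.31 to 0.05, and -0.22, -0.40 to -0.03; limma adjusted p = 0.295 and 0.144).

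Hsp90b1 (GRP94), the HSP90 of the ER, read 1044, 874 and 1476 in the leukemias, 1621, 1326 and 1531 in lineage-negative marrow and 1510, 1522 and 1477 in whole marrow. Leukemia 1 and leukemia 2 lay well below whole marrow, and leukemia 3 was level with it. Its difference of -0.44 (95% interval -0.84 to -0.05) did not pass (limma adjusted p = 0.0996), but did without leukemia 3 (-0.65, adjusted p = 0.00794) and under both scalings. Dnajc3 (p58IPK), a J-domain co-chaperone and kinase inhibitor, had the same order, with 243, 196 and 339 in the leukemias and 334, 365 and 333 in whole marrow (-0.44, limma adjusted p = 0.0974, and 0.00643 without leukemia 3), and it too passed under both scalings. Both promoters above hold the ER stress element, as does that of Hspa5. Plasma cell markers (8 measured) had that order in the leukemias too: their sums were 961, 426 and 1753 in leukemia 1, 2 and 3, 1545, 920 and 1511 in lineage-negative marrow and 1937, 1409 and 1786 in whole marrow. In lineage-negative marrow Hsp90b1 and Dnajc3 (374, 352 and 363) had the array order of these sums, and in whole marrow neither did. Most of the sum is Jchain, which joins antibody units, and Xbp1, a factor of the unfolded protein response. Xbp1 and Derl3 are also in the list of unfolded protein response genes below, so the sum is not of plasma cells alone, and its part in the ER values was not tested.

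Dnajb9 (ERdj4), a J-domain protein that targets misfolded ER proteins for degradation, was the 1 member that fell against whole marrow. It read 653, 687 and 461 in the leukemias, 851, 513 and 775 in lineage-negative marrow and 1180, 951 and 1035 in whole marrow. All leukemias were below all whole marrow arrays and overlapped lineage-negative marrow. The difference was -0.83 ± 0.21 (limma adjusted p = 0.0222), which was lost without whole marrow 1 (adjusted p = 0.0777), whole marrow 3 (0.053) or leukemia 3 (0.063). Dnajc16 rose 1.63-fold (0.71 ± 0.11, limma adjusted p = 0.00304) and Dnajb12, a membrane J-domain protein of ER quality control, 1.37-fold (0.46 ± 0.08, adjusted p = 0.00531), the second not under either scaling. Dnajc25 fell by 0.54 ± 0.10 against lineage-negative marrow (limma adjusted p = 0.0138), a call lost without lineage-negative 1 (0.0536).

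Related ER genes outside the set moved both ways. Of 16 folding factors, 1 rose and 2 fell against whole marrow, beside 14.6% and 9.93% of all genes. Sil1 (the exchange factor of BiP) rose by 0.56 ± 0.08 and the oxidase Ero1b fell by 1.09 (limma adjusted p = 0.00248 and 0.0141). In lineage-negative against whole marrow 6 of the 16 were higher and 2 lower, beside 21.7% and 13.0% of all genes. Of 14 genes of the unfolded protein response and ER degradation, Derl1, a channel component of ER degradation, rose against whole marrow by 0.76 ± 0.10 and against lineage-negative marrow by 0.44 ± 0.10 (limma adjusted p = 0.00173 and 0.0357), the second call lost in 7 alternatives. Eif2ak3 (PERK), a sensor kinase of that response, fell by 1.07 against whole marrow (adjusted p = 0.00256), and the other 12 did not pass in either leukemia comparison. Of all genes 2.95% rose against lineage-negative marrow.

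Of the cytosolic HSP70 and HSP110 genes, 1 of 8 rose against whole marrow (12.5%, beside 14.6% of all genes), as did Hsp90aa1. Hspa8 (HSC70), the constitutive HSP70, read 4259, 4041 and 3902 in the leukemias, 4446, 4254 and 4180 in lineage-negative marrow and 4039, 3591 and 4189 in whole marrow. The groups overlapped, and the difference from whole marrow was 0.05 (95% interval -0.13 to 0.23), with a sign that turned under both scalings. Hsp90aa1, an HSP90 that is partly heat-inducible, read 2522, 2924 and 2405 in the leukemias, 2851, 3183 and 2941 in lineage-negative marrow and 1901, 1686 and 2278 in whole marrow. The leukemias stood above whole marrow and overlapped lineage-negative marrow. The rise over whole marrow was 1.34-fold (0.43 ± 0.12, limma adjusted p = 0.0344), and it was lost in 9 of the alternatives, both scalings among them (adjusted p up to 0.131). Hsp90ab1 was not analysed here. Hspa4, an HSP110 that acts as exchange factor for HSP70, was 1.46-fold higher in lineage-negative than in whole marrow (0.54 ± 0.10, limma adjusted p = 0.00236), with leukemia between them at 792, 759 and 700, not called against either. Hspa14, an HSP70 of the ribosome, rose 1.26-fold against whole marrow (0.34 ± 0.10, limma adjusted p = 0.0336), a call lost in 10 alternatives. Hspa4l, a relative of Hspa4, fell against lineage-negative marrow (-0.68 ± 0.17, limma adjusted p = 0.0468), a call lost in 10 of the alternatives.

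Among heat-inducible members, Hspa1a, Hsph1 and Dnajb1 were not called in leukemia against whole marrow, and Hspa1a fell against lineage-negative marrow. The partly heat-inducible Hsp90aa1 was called higher against whole marrow, as given above, in a call lost in 9 alternatives. Hspa1a, the classic inducible HSP70, read 64, 110 and 39 in the leukemias, 258, 274 and 172 in lineage-negative marrow and 72, 70 and 141 in whole marrow. Leukemia overlapped whole marrow and lay below all lineage-negative arrays, 3.55-fold lower on average (-1.83 ± 0.40, limma adjusted p = 0.0277). Lineage-negative marrow was 2.57-fold above whole marrow (1.36 ± 0.40, adjusted p = 0.0283). Both calls rest on few arrays: the first was lost without leukemia 1, leukemia 3, lineage-negative 1 or lineage-negative 2 (adjusted p up to 0.0938), the second in 5 alternatives. A probe set annotated to both Hspa1a and its near-identical copy Hspa1b, which entered no test, read 80, 156 and 59 in the leukemias, 393, 544 and 307 in lineage-negative marrow and 95, 105 and 221 in whole marrow, the same order of groups.

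Hsph1 (HSP105), an inducible HSP110, read 188, 516 and 255 in the leukemias, 623, 802 and 590 in lineage-negative marrow and 210, 119 and 370 in whole marrow. Leukemia lay below lineage-negative marrow without overlap, but its difference of -1.19 (95% interval -2.21 to -0.17) did not pass (limma adjusted p = 0.153). Lineage-negative marrow was 3.17-fold above whole marrow (1.66 ± 0.45, adjusted p = 0.0191), lost under cyclic loess and without lineage-negative 2, whole marrow 1 or whole marrow 2. Dnajb1 (HSP40), the inducible J-domain partner of HSP70, read 158, 245 and 163 in the leukemias, 233, 279 and 222 in lineage-negative marrow and 163, 106 and 190 in whole marrow. It was higher in lineage-negative than in whole marrow (0.72 ± 0.24, limma adjusted p = 0.0464), a call lost in 10 alternatives, and leukemia overlapped both groups.

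Arrays of the same group also disagreed on these genes. On the brightest probe set of each gene, the 6 members with the highest SD over the whole marrow arrays were Hsph1 (0.82 log2 units), Dnajb4 (0.62), Hspa1a (0.57), Dnaja4 (0.49), Dnajb1 (0.44) and Dnaja1 (0.43). They were picked for this spread: the median SD there was 0.143 over all 82 members and 0.127 over all genes. Dnajb4 and Dnaja4, both J-domain partners of HSP70, are named after their values were seen. All 6 read lowest in whole marrow 2, highest in whole marrow 3 and, among the leukemias, highest in leukemia 2. This order was read from these 6 genes. It held for 9 of the other 76 members (11.8%), beside 5.98% of all genes, and no test was made. The ranking depends on the probe set: on the set of its own chromosome, Hspa8 had a whole marrow SD of 0.89 and the same order of arrays. Dnaja4 ran furthest, with 44, 171 and 84 in the leukemias, 49, 96 and 63 in lineage-negative marrow and 34, 25 and 50 in whole marrow. Dnajb4 read 330, 487 and 269 in the leukemias, 508, 522 and 471 in lineage-negative marrow and 242, 126 and 282 in whole marrow. Whole marrow 2 also had the lowest erythroid and B cell marker sums of its group (1297 and 1260), and whole marrow 3 the highest (3850 and 5397). Their part in the spread was not tested.

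**Figure D4:**
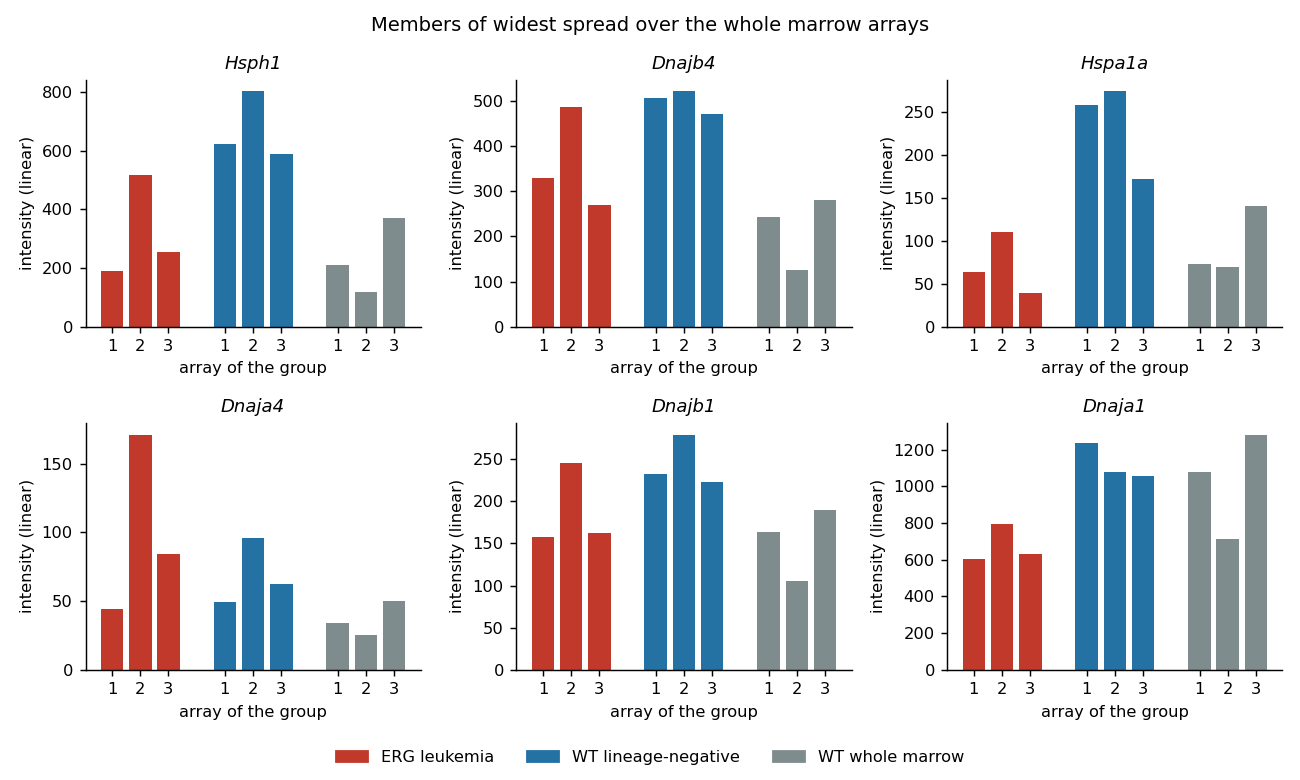
Linear intensity (y axis, each panel from 0 with its own scale) on each array (x axis, arrays 1 to 3 of a group) for the 6 members with the widest spread over whole marrow on the brightest probe set of each gene. In each panel whole marrow 2 is the lowest and whole marrow 3 the highest of the whole marrow bars, and leukemia 2 is the highest leukemia bar.

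Of the heat shock factors that drive such genes, Hsf2, Hsf4 and Hsf5 were measured and Hsf1 was not analysed here. Their smallest limma adjusted p over the 3 comparisons was 0.272, for Hsf5. Hsf2 read 88, 44 and 87 in the leukemias, 95, 93 and 89 in lineage-negative marrow and 68, 76 and 81 in whole marrow, while Hsf4 and Hsf5 lay below the median intensity on every array. Of the 22 cytosolic co-chaperones of HSP70 and HSP90, 11 rose against whole marrow, beside 14.6% of all genes and 26.0% of the brighter ones. Their median was 0.42, beside -0.02 over all genes and 0.08 over the brighter ones. Against lineage-negative marrow 6 fell (5.74% and 9.62%), and 17 were higher in lineage-negative than in whole marrow (21.7% and 38.2%, median 0.74). Bag2, an exchange factor for HSP70, rose most against whole marrow (1.20 ± 0.15, limma adjusted p = 0.0014). Bag3, a stress-inducible exchange factor, read 79, 95 and 71 in the leukemias, 165, 198 and 145 in lineage-negative marrow and 54, 59 and 58 in whole marrow. Its 3 groups were separate, and it was down by 1.05 in leukemia against lineage-negative marrow (limma adjusted p = 0.00388) and up by 0.52 ± 0.14 against whole marrow (adjusted p = 0.0252, lost in 7 alternatives).

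The J-domain family, 45 genes, is the largest by number, and in the leukemia comparisons its rises and, against lineage-negative marrow, its falls were near the shares of all genes. Against whole marrow 8 rose (17.8%, beside 14.6% of all genes) and 1 fell (2.22%, beside 9.93%). Against lineage-negative marrow 1 rose (2.22%, beside 2.95%) and 2 fell (4.44%, beside 5.74%). In lineage-negative against whole marrow 16 were higher (35.6%, beside 21.7%) and 3 lower (6.67%, beside 13.0%). Dnajc6 (auxilin), which strips clathrin coats from vesicles with HSC70 and is known mainly from neurons, had the largest difference of all 82 members. It read 433, 344 and 219 in the leukemias, 218, 298 and 264 in lineage-negative marrow and 62, 71 and 60 in whole marrow. Leukemia was 5.0-fold whole marrow (2.32 ± 0.23, limma adjusted p = 0.000666) and overlapped lineage-negative marrow (0.31, 95% interval -0.21 to 0.83). Dnajc2 (zuotin), which works at the ribosome, rose 1.44-fold against whole marrow (0.52 ± 0.11, limma adjusted p = 0.011). Dnaja1, a main cytosolic J-domain protein, did not pass: it read 604, 797 and 633 in the leukemias, 1238, 1076 and 1056 in lineage-negative marrow and 1079, 713 and 1281 in whole marrow. Whole marrow 2 alone overlapped the leukemias, and the difference was -0.56 ± 0.20 (limma adjusted p = 0.0809). It passed without whole marrow 2 (-0.81 ± 0.14, 0.00934), after 75th percentile centring (-0.67, 0.0306) and after cyclic loess (-0.72, 0.0334). Its difference from lineage-negative marrow, -0.74, passed in 4 alternatives. Dnajb13, a J-domain protein of sperm flagella and cilia, was the 1 member higher in leukemia than in lineage-negative marrow (0.39 ± 0.10, limma adjusted p = 0.0406), at intensities below the array median and in a call lost in 8 alternatives. Dnajc5 (cysteine string protein, an exocytosis factor) and Dnajb14 were lower in lineage-negative than in whole marrow, with differences of -0.39 ± 0.11 and -0.57 ± 0.14 (limma adjusted p = 0.0239 and 0.0108). Probe sets shared by Dnajb14 and Pin4, which entered no test, went the other way. For example, one read 268, 283 and 250 in lineage-negative marrow and 165, 170 and 172 in whole marrow. The Dnajc5 call was lost without whole marrow 1 or any 1 lineage-negative array (adjusted p between 0.0502 and 0.0829).

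Small heat shock proteins, which hold unfolded clients without ATP and are best known from muscle and lens, were mostly dim: 6 of the 7 lay below the median intensity in every group. Hspb1 (HSP25 in the mouse) read 19.1 to 20.1 in the leukemias, 21.1 to 25.7 in lineage-negative marrow and 19.7 to 24.7 in whole marrow and passed in no comparison. Hspb6 was the exception, with 112, 86 and 82 in the leukemias, 94, 121 and 98 in lineage-negative marrow and 71, 64 and 56 in whole marrow. It was 1.47-fold higher in leukemia than in whole marrow (0.55 ± 0.15, limma adjusted p = 0.0294), which was lost under cyclic loess and without leukemia 1, whole marrow 2 or whole marrow 3.

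Of the members placed elsewhere, Hspbp1 separated all 3 groups. Hspbp1, an exchange factor that slows HSP70, read 213, 193 and 209 in the leukemias, 274, 318 and 284 in lineage-negative marrow and 111, 103 and 120 in whole marrow. It rose 1.84-fold over whole marrow (0.88 ± 0.09, limma adjusted p = 0.000696) and fell against lineage-negative marrow (-0.51 ± 0.09, adjusted p = 0.0122). Cct6a, Dnaja3 and Hspd1 shared that pattern of 3 calls, and 18 further members were called above whole marrow in both other groups but not between these. How many of all genes show these patterns was not counted. Singly, 14.6% of all genes were called above whole marrow in leukemia and 21.7% in lineage-negative marrow. Hspa12b, a distant HSP70 known from endothelium, was the 1 member called higher in leukemia than in whole marrow without a call in lineage-negative marrow. It read 47.9, 34.7 and 29.9 in the leukemias, 23.3, 29.2 and 27.1 in lineage-negative marrow and 22.4, 26.5 and 24.0 in whole marrow (0.60 ± 0.17, limma adjusted p = 0.0318), a call lost in 7 alternatives. Hspbap1 and Hspa12a were lower in lineage-negative than in whole marrow (-0.51 ± 0.16 and -0.35 ± 0.10, limma adjusted p = 0.0334 and 0.0282). These calls were lost in 5 and 6 alternatives, and Hspa12a lay below the median intensity in every group. In 39 members no comparison passed, and the share of all genes without a call was not counted either.

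For 8 members several probe sets carried the gene's single symbol, and for 6 of them the brightest, which stood for the gene, has neighbours in the platform's numbering that lie on another chromosome. What such a set reads was not tested. For Hspa8 the 2 readings differed most. The set whose neighbours lie on the gene's own chromosome 9 read 1748, 3568 and 3437 in the leukemias, 3520, 2999 and 3398 in lineage-negative marrow and 4406, 1568 and 4694 in whole marrow. Leukemia 1 and whole marrow 2 were far below the rest of their groups, and the 95% interval of the leukemia difference from whole marrow widened to -1.16 to 0.77. For Hspd1 the order was the same on both sets, and the own-chromosome set gave larger differences, 0.93 ± 0.16 against whole marrow and -0.85 ± 0.16 against lineage-negative marrow (limma adjusted p = 0.00368 and 0.0138). Hsp90aa1 gave 0.40 ± 0.11 (adjusted p = 0.0317) and Dnaja1 -0.52 ± 0.27 (adjusted p = 0.22) on their own-chromosome sets. With these sets in place, 24 members rose and 1 fell against whole marrow.

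**Figure D5:**
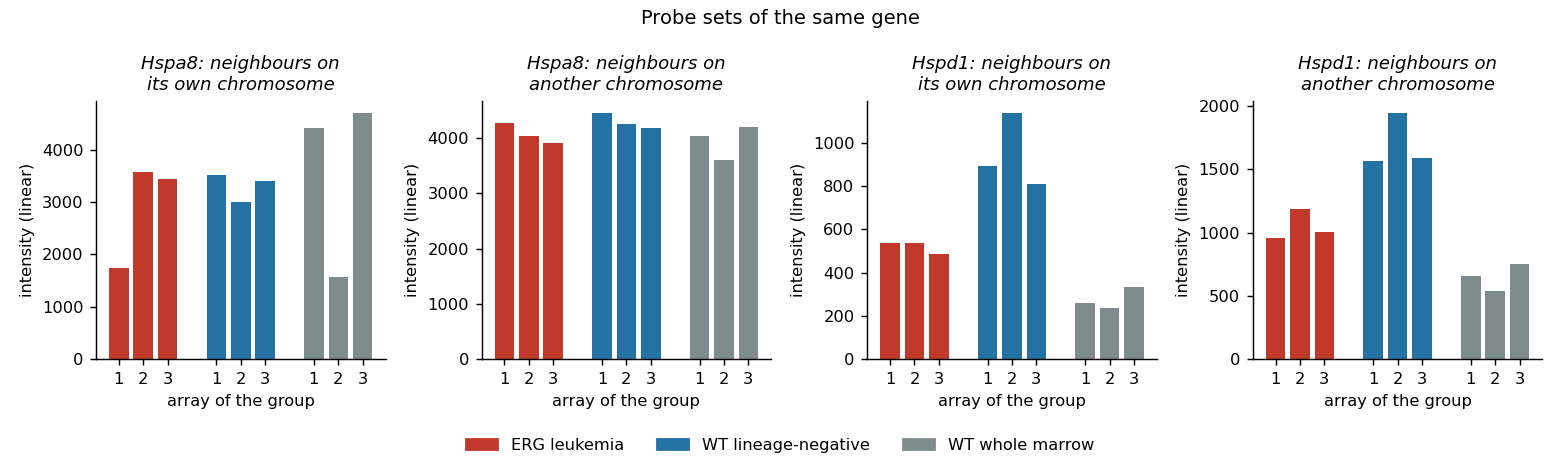
Linear intensity (y axis, each panel from 0 with its own scale) on each array (x axis, arrays 1 to 3 of a group) for the Hspa8 and Hspd1 probe sets with platform neighbours on the gene's own chromosome or on another one. Hspa8 readings disagree in leukemia 1 and whole marrow 2, and Hspd1 readings keep the order lineage-negative, leukemia, whole marrow from high to low.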

How the data were processed

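Affymetrix whole-transcript arrays of 9 samples were used. The deposited values are linear intensity values that the authors made with RMA in Partek, per the submitters' processing notes. Their versions and the genome build: not given in the sources used here. Of 28853 probe sets, 5443 had no symbol, 1621 listed more than 1 and 21789 exactly 1. The brightest single-symbol probe set stood for a gene (998 genes had several), which left 19938 genes. Of these, 19855 matched a RefSeq gene table (GRCm38.p6) used for names and chromosomes.

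Values were log2-transformed, without further normalization. The 3 comparisons came from 1 model of 9 arrays in R 4.3.3 with limma 3.58.1 (eBayes without trend, 6 residual plus 2.63 prior degrees of freedom). P-values are two-sided and Benjamini-Hochberg adjusted over all genes, with a threshold of 0.05. The script was tested on simulated data. The 3 arrays per group limit the precision, and lineage-negative arrays average 3 mice each. Leukemias were numbered in accession order. Wild type groups share replicate numbers but not mice, and their deviations correlated at 0.312, -0.009 and -0.009, so they were not treated as pairs.

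Named were the main chaperones and chaperonin subunits and, per family and comparison, the 2 largest rises and falls that passed. Members of other lists are named by the largest change. Dnajc2, Dnajc15, Dnajc16, Dnajc30, Dnajb12, Hspa14 and the leading marker genes were named after their values were seen. Members, lists and tests were chosen with earlier results of these data known. Alternatives were 75th percentile centring, cyclic loess, genes above the median intensity, the mean of probe sets, only the groups compared, eBayes with trend, leaving out each array, a replicate block and, chosen after seeing the data, the probe set of the gene's own chromosome. Promoters are from RefSeq. Python 3.11.15, pandas 2.3.3 and matplotlib 3.10.9 were used.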

Additional observations from a re-analysis of the deposited data

How the results depend on the processing

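Of the named genes' values under the alternatives, 627 kept direction and side of the threshold in leukemia against whole marrow (70 lost and 16 gained a call), 454 against lineage-negative marrow (43 lost, 10 gained) and 503 in lineage-negative against whole marrow (35 lost, 8 gained). With 3 arrays a group, counts of falls were the least stable. In leukemia against whole marrow, falls numbered 8 after 75th percentile centring, 8 after cyclic loess and 3 with trend, against 1, and mitochondrial rises 3 and ER rises 1 under both scalings, with 4 and 6 ER falls. Against lineage-negative marrow, rises numbered 2 after cyclic loess (1 of them an ER member) and 0 among genes above the median, and chaperonin falls 0 after 75th percentile centring and 0 with only the groups compared. In lineage-negative against whole marrow, falls numbered 9 and 8 under the scalings, with 1 mitochondrial fall after cyclic loess. ER falls there were 3 under both scalings, among brighter genes and with the replicate block, and 2 with the mean of probe sets, only the groups compared or trend. The replicate block left 32 members higher and 4 lower, with 8 chaperonin and 7 mitochondrial rises. The causes were not tested.

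Leaving out 1 array gave 18 to 23 rises and 0 to 4 falls in leukemia against whole marrow, 0 to 1 rises and 3 to 11 falls against lineage-negative marrow, and 27 to 35 higher and 1 to 5 lower members in lineage-negative against whole marrow. Falls against lineage-negative marrow were 3 without lineage-negative 1 or 2 and 5 without lineage-negative 3 or leukemia 1. Falls against whole marrow were 4 without leukemia 3 and 2 without leukemia 1. Lower members in lineage-negative marrow were 3, 2 and 1 without its arrays 1, 2 and 3. Chaperonin falls against lineage-negative marrow ran from 0 to 3 (3 without leukemia 2). Mitochondrial members had 3 to 6 rises and 0 to 1 falls against whole marrow, 1 to 4 falls against lineage-negative marrow and 6 to 7 higher in lineage-negative marrow. ER members had 2 to 3 rises and 0 to 2 falls against whole marrow, 0 to 3 falls against lineage-negative marrow, and 3 to 6 higher and 1 to 2 lower in lineage-negative marrow.

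Signs turned only for differences that passed no test under these settings. Hspa8 against whole marrow was -0.06 and -0.03 under the scalings, -0.04 with the mean of probe sets, -0.02 to 0.09 without 1 array (-0.02 without whole marrow 2) and -0.20 on the own-chromosome set. Cct6b against lineage-negative marrow was -0.06 to 0.17 without 1 array (-0.06 without lineage-negative 1 and -0.02 without leukemia 1). In lineage-negative against whole marrow, 75th percentile centring gave -0.03 for Hspa8, -0.07 for Hspa5, -0.01 for Cct6b, -0.08 for Dnajc3 and -0.10 for Hspb1, and cyclic loess -0.03 for Hspa5, -0.01 for Dnaja1 and -0.21 for Dnajc3. Leaving out 1 array gave -0.07 to 0.35 for Dnaja1 (-0.07 without whole marrow 2), -0.03 to 0.13 for Hspb1 (-0.03 without whole marrow 1 and -0.02 without lineage-negative 2) and -0.08 to 0.07 for Hsp90b1 (0.07 without lineage-negative 2).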

Other observations

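Some probe sets carry the symbols of a member and of another gene and entered no test. Those shared by Dnajb6 and Gm4247 were bright, for example 1503, 1306 and 1335 in the leukemias, 1655, 1381 and 1361 in lineage-negative marrow and 1584, 1336 and 1299 in whole marrow, while the set of Dnajb6 alone read 31.1 to 39.8 in the leukemias, 34.4 to 38.3 in lineage-negative marrow and 31.5 to 46.5 in whole marrow. A set shared by Hspa8 and the small nucleolar RNA genes Snord14c and Snord14d, which lie in its introns, read 1552, 1110 and 758 in the leukemias, 1575, 2029 and 1790 in lineage-negative marrow and 1369, 1250 and 1513 in whole marrow. A set shared by Dnaja1 and Mir207 read 265, 299 and 247 in the leukemias, 258, 231 and 279 in lineage-negative marrow and 298, 342 and 306 in whole marrow. On it the leukemias overlapped lineage-negative marrow, unlike on the set that stood for Dnaja1. No difference was tested on these sets.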
